A study of Rattus norvegicus with 6 samples.

Results

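The small RNA of rat liver was examined for miR-33, the microRNA whose gene lies in an intron of Srebf2. Its reads were taken from 6 small RNA libraries, 3 from Wistar rats with nonalcoholic fatty liver disease (NAFLD) and 3 from normal Wistar rats, with 1 library per rat. A tag is a distinct read sequence with its number of reads. A tag was counted to an arm of miR-33 when its first 18 bases equalled those of the mature sequence. This gave 65 tags of 1528721 different tags in all, 57 of the 5p arm and 8 of the 3p arm. They held 5540 reads of miR-33-5p and 33 reads of miR-33-3p.

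The rats were male. Those of the NAFLD group were fasted for 48 h, after which they were fed 80% starch for 7 days, with casein, minerals and vitamins. Normal rats ate a standard diet in which 35% starch was only a part of the carbohydrate, and which also held fiber and lipids. The diets thus differed in more than starch. The sample labels give an age of 4 months for all rats, whereas the study's methods give 28 weeks. The model is a short diet, and the NAFLD rats sequenced are not a random draw, since liver triglyceride content guided which of them were used. No such criterion applied to the normal rats. Clean reads numbered between 11601058 and 11880695 per library. miR-122-5p, the defining miRNA of hepatocytes, was the most abundant arm, with 445063 to 595583 reads per 1000000 clean reads (TPM).

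The miR-33 gene is transcribed together with Srebf2, which encodes the sterol-regulated transcription factor SREBP-2. SREBP-2 switches on genes of cholesterol synthesis and uptake when cell sterols are low. miR-33-5p, the main product of the hairpin, is known to repress the cholesterol exporter ABCA1 and genes of fatty acid oxidation. Host gene and miRNA are thus held to act in the same direction on cell cholesterol, and miR-33 has been studied in liver for its effect on HDL and on lipid storage.

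The sequences below show the hairpin and its arms, since every count in the text rests on their first bases. In the hairpin the capitals mark the 5p and then the 3p arm, and in the arms they mark the seed, bases 2 to 8, which pairs with target mRNAs.
Mir33 hairpin: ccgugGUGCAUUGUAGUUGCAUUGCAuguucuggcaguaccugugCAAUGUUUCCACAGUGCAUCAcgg
rno-miR-33-5p: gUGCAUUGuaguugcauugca
rno-miR-33-3p: cAAUGUUUccacagugcauca

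The sequences are those of RefSeq on the rat build GRCr8, where the hairpin of 69 nt lies on the plus strand at chr7:115593952-115594020. In the same annotation this interval falls inside the bounds of Srebf2, which is read from the same strand. The 5p arm takes bases 6 to 26 of the hairpin and the 3p arm bases 46 to 66, each of 21 nt. In the minimum free energy fold of the hairpin, at -34.4 kcal/mol, 16 bases of each arm were paired with the other arm. Among the 693 mature rat miRNA names of the table, the seeds UGCAUUG and AAUGUUU were each found in no other arm. No other rat hairpin of the table held the first 18 bases of either arm, so these reads were not shared with another listed miRNA.

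The libraries fell into 2 sets that cut across the groups, and this touches every result on miR-33. At read position 4 of the 50 most abundant tags, the median share of reads with a substitution was 0.899% in NAFLD 2, 0.947% in NAFLD 3 and 1.03% in normal 2. It was 0.0460% in NAFLD 1, 0.0431% in normal 1 and 0.0454% in normal 3. The first 3 are called the substitution-rich libraries here and the others the substitution-poor libraries. The labels name no batch, and the origin of the substitutions was not tested.

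miR-33-5p was read 1000, 550 and 506 times in NAFLD replicates 1, 2 and 3, which is 86.2, 46.8 and 42.8 TPM. In normal replicates 1, 2 and 3 it was read 1386, 553 and 1545 times, which is 116.9, 46.6 and 130.0 TPM. Normal replicate 2 thus lay among the lower NAFLD libraries, and the groups overlapped. The means were 58.6 ± 23.98 TPM (SD, n = 3) in NAFLD and 97.9 ± 44.9 TPM (SD, n = 3) in normal liver. The mean was 0.599 times that of the normal libraries, and the difference was within the spread between libraries (exact permutation test, two-sided, p = 0.3, where 3 against 3 cannot go below 0.1). Reads of all mature miRNA arms were 76.9%, 75.7% and 79.2% of clean reads in NAFLD replicates 1, 2 and 3. In normal replicates 1, 2 and 3 they were 86.9%, 85.7% and 91.3%, without overlap between the groups. With these reads as denominator, the log2 ratio of miR-33-5p was -0.54 in place of -0.74 (exact permutation p = 0.3).

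**Figure D1:**
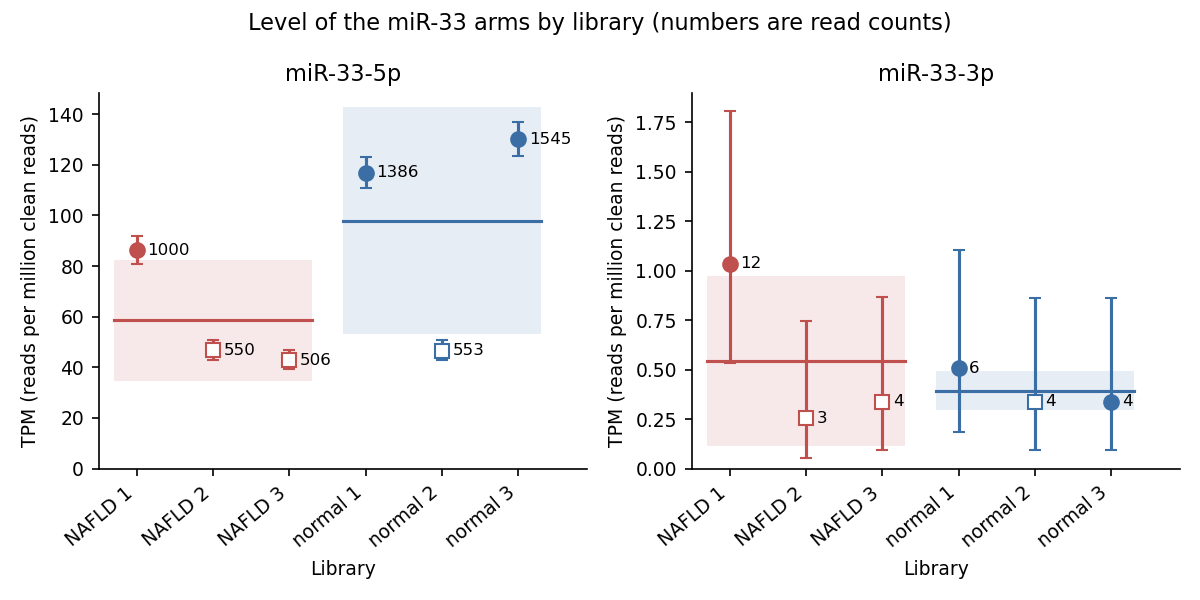
Level of miR-33-5p (left) and miR-33-3p (right) in TPM in each library, with the read count beside each point. Bars are exact 95% counting intervals, lines are group means, shaded boxes are the mean ± SD (n = 3), and open squares are the substitution-rich libraries, which lie at 42.8 to 46.8 TPM for miR-33-5p in both groups.

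The depth was not what limited this comparison. The exact 95% interval of a single library, which covers only counting error and takes amplified reads for separate molecules, was narrow: 80.9 to 91.7 TPM in NAFLD replicate 1 and 42.8 to 50.6 TPM in normal replicate 2. By counting error alone, the ratio of the summed reads of NAFLD to normal had a 95% interval from 0.565 to 0.631. The spread between libraries was far wider. The coefficient of variation was 40.9% in NAFLD and 45.9% in normal liver, where counting alone gives 3.82% and 2.93%. The level of miR-33-5p would thus allow a statement, and the spread between the libraries in TPM did not. In whole liver, moreover, fewer hepatocytes and less of the miRNA per hepatocyte cannot be told apart.

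The spread of miR-33-5p followed the 2 sets of libraries rather than the groups. The 3 substitution-rich libraries held 42.8 to 46.8 TPM and the 3 substitution-poor libraries 86.2 to 130.0 TPM, without overlap. Within the substitution-poor libraries, NAFLD replicate 1 had 0.698 times the mean of normal replicates 1 and 3. Within the substitution-rich libraries, NAFLD replicates 2 and 3 had 0.962 times the level of normal replicate 2. Each set holds 1 library against 2 and allows no test.

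Many reads of miR-33-5p in the substitution-rich libraries did not equal the mature sequence in their first 18 bases. Reads with exactly 1 substitution there numbered 289 in NAFLD 2, 302 in NAFLD 3 and 299 in normal 2, against 20 in NAFLD 1, 12 in normal 1 and 13 in normal 3. They were 34.4%, 37.4% and 35.1% of the reads found with up to 1 substitution in the first 3 libraries, and 1.96%, 0.858% and 0.834% in the others. Of the 935 such reads in all, 779 carried 1 of 3 changes, with positions counted from 1 at the 5′ end. A16C was carried by 95, 120 and 114 reads in NAFLD 2, NAFLD 3 and normal 2, A5C by 103, 88 and 93 reads, and C4A by 58, 58 and 50 reads. Among reads with exactly 1 substitution, none of the 3 changes occurred in a substitution-poor library. Among reads with 2 or 3 substitutions, C4A occurred in 1 read of normal 1. Positions 4 and 5 lie within the seed and position 16 outside it. The pair A5C with A16C was carried together by 35, 43 and 43 reads in the same libraries. The shortfall in exact reads was not particular to miR-33-5p. Over 87 arms with at least 100 reads in every library when 1 substitution is allowed, the exact reads were a median of 69.3% of these reads in the substitution-rich libraries, and 25 arms had a smaller share than the 64.4% of miR-33-5p. In the substitution-poor libraries the median was 98.8%. Among the 25 arms, miR-100-5p, miR-15b-5p and miR-30a-5p had low shares there too, at 1.85%, 24.8% and 32.3%. Their low share was thus not particular to the substitution-rich libraries.

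With up to 3 substitutions allowed, provided that no other arm matched as well, miR-33-5p had 1025, 922 and 880 reads in NAFLD and 1401, 938 and 1558 reads in normal liver. This is 88.4, 78.4 and 74.5 TPM against 118.2, 79.0 and 131.1 TPM. The means were 80.4 ± 7.15 TPM and 109.4 ± 27.1 TPM (SD, n = 3 each), a ratio of 0.735 (exact permutation p = 0.2). The groups still overlapped through normal replicate 2, which lay below NAFLD replicate 1. The substitution-rich libraries rose but stayed below the others, at 0.687 times their mean, against 0.409 times by exact match. Within the sets the NAFLD libraries had 0.709 and 0.967 times the normal level, close to the values by exact match. The part of the substitutions in the remaining difference between the sets was not tested.

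**Figure D2:**
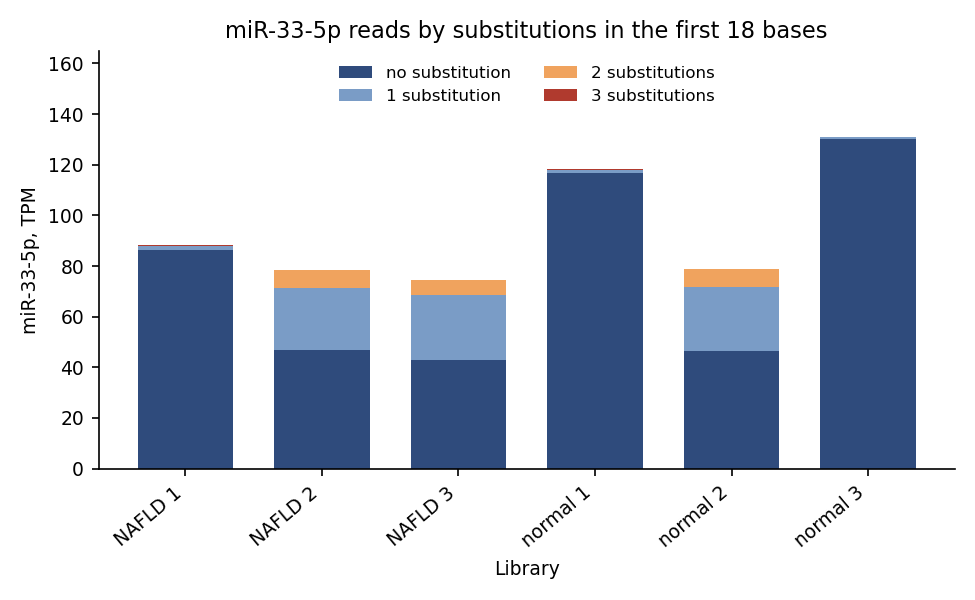
TPM of miR-33-5p in each library, with reads stacked by the number of substitutions in their first 18 bases. Substituted reads are a visible part only in NAFLD 2, NAFLD 3 and normal 2, and the full bars of these 3 libraries reach 74.5 to 79.0 TPM.

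To set miR-33 beside the other miRNAs, counts were summed in the same way for all mature arms of the table, which gave 675 arms or groups of arms with the same first 18 bases. Of these, 167 passed the filter on low counts and were fitted by edgeR (quasi-likelihood), with total clean reads as library size. With a Benjamini-Hochberg adjusted p under 0.05 over the 167, 1 arm was called (0.599% of those tested), and 3 arms (1.8%) had an unadjusted p under 0.05. miR-33-5p was among neither. Its log2 fold change of NAFLD over normal was -0.74 (standard error 0.50), with a 95% interval from -1.83 to 0.35, an unadjusted p of 0.166 and an adjusted p of 0.986 from edgeR. As a fold this is 0.599 with an interval from 0.281 to 1.28, so a decrease of more than 3-fold and a small increase are both within it. Only 5 of the 167 arms had a lower estimate, and the median over all was 0.02. With the 2 sets of libraries as a covariate, the log2 fold change was -0.29 (standard error 0.23) and the edgeR adjusted p 0.633, a fold of 0.818 with an interval from 0.582 to 1.15. In that fit the median of all arms was 0.24.

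The arm that was called was miR-122-5p. It fell in NAFLD by 0.35 on the log2 scale (standard error 0.04, edgeR adjusted p = 0.000532), with 445063, 459471 and 465119 TPM against 560716, 588535 and 595583 TPM in normal liver. With TMM factors, DESeq2 size factors, DESeq2 and limma it was not called, at adjusted p of 0.899 to 0.998, while its log2 fold change was -0.43, -0.41, -0.41 and -0.35 in these fits. TPM is a share of all clean reads, and miR-122-5p alone takes about as many as all other reads together. For miR-33-5p the estimate was -0.74 with TMM factors and -0.70 with DESeq2 size factors.

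**Figure D3:**
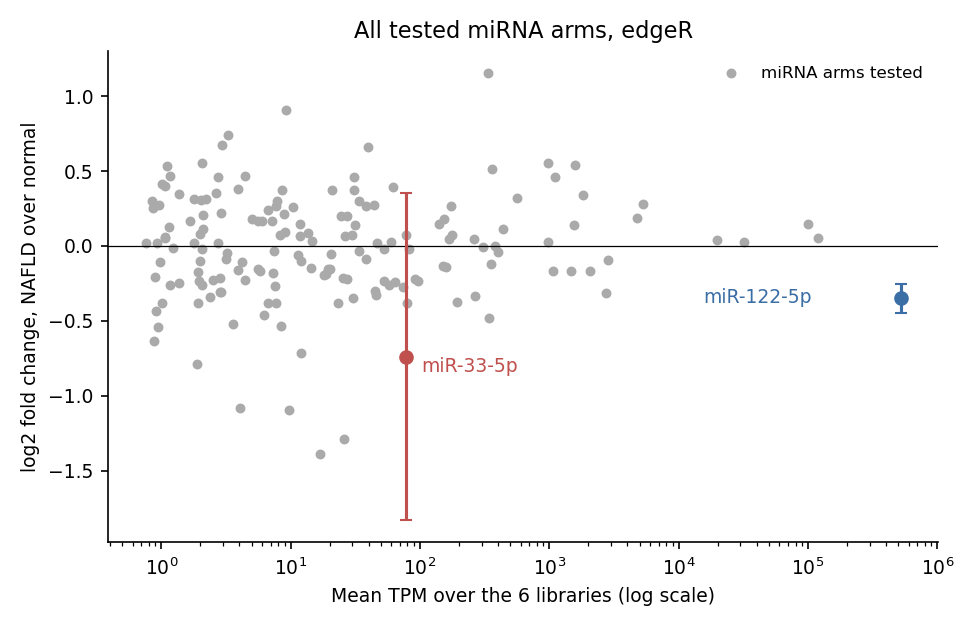
Fold change of NAFLD over normal (log2, edgeR) against mean TPM for the 167 arms tested, with 95% intervals for miR-33-5p and miR-122-5p. The interval of miR-33-5p at 78.2 TPM spans 0, whereas that of miR-122-5p does not.

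By mean TPM over the 6 libraries, miR-33-5p ranked 43 of 675 arms, of which 365 had any read. Its rank within single libraries was between 38 and 51. Its mean was 78.2 ± 38.7 TPM (SD, n = 6). The next arms above it were miR-125b-5p with 79.8 ± 33.2 TPM and miR-532-5p with 78.5 ± 16.7 TPM, and those below were miR-221-3p with 74.2 ± 20.2 TPM and miR-128-3p with 63.8 ± 28.9 TPM (SD, n = 6 each). These neighbours were taken by rank, so their closeness in mean follows from the choice, and no difference was tested. The values are levels of reads, and arms can differ in how well they are ligated and amplified.

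miR-33-3p, the other strand of the duplex, was close to the limit of detection. It was read 12, 3 and 4 times in NAFLD replicates 1, 2 and 3 and 6, 4 and 4 times in normal replicates 1, 2 and 3. A count of 0 would allow up to 3 reads, or 0.253 to 0.259 TPM, so the lowest library lies at that floor. The means were 0.543 ± 0.428 TPM in NAFLD and 0.393 ± 0.0978 TPM in normal liver (SD, n = 3 each; exact permutation p = 0.8). Without NAFLD replicate 1, which had the most reads, the NAFLD mean fell below the normal mean, with a log2 ratio of -0.41 in place of 0.46. By counting error alone, the ratio of NAFLD to normal had a 95% interval from 0.653 to 2.96. The level of miR-33-3p thus allows no statement on NAFLD at this depth. It had too few reads for the edgeR filter. Without that filter its log2 fold change was 0.45 (standard error 0.67, edgeR adjusted p = 0.995).

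The 5p arm took nearly all reads of the hairpin. Its share of the reads of both arms was 98.8%, 99.5% and 99.2% in NAFLD and 99.6%, 99.3% and 99.7% in normal liver. The exact 95% intervals of the single libraries, from 97.9% at the lowest to 99.9% at the highest, overlapped for all pairs of libraries. The means of 99.2% ± 0.325 and 99.5% ± 0.232 (SD, n = 3 each) differed by -0.368 percentage points (exact permutation p = 0.2). The 4 main exact tests on miR-33 were on the levels of both arms, this share and the share of 5p reads at the annotated length. Over these 4, the Benjamini-Hochberg adjusted p of the exact permutation tests was 0.533 to 0.8. Further exact tests, on alternatives and on other measures of the 3′ end, are not in this adjustment. Such a lead of 1 arm is common in these libraries. Of 87 hairpins with both arms in the table and at least 100 reads, 47 had a larger share in their leading arm than the 99.4% of miR-33, and the median was 99.7%.

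All but a few reads of the hairpin began at the annotated first base of an arm. Tags equal to a stretch of the hairpin that began elsewhere numbered 4, with 4 reads in all, each within 2 bases of an arm's start. No read came from the loop. The 5′ end of miR-33-5p, which sets the seed, thus hardly varied, although only tags without a substitution and with a 3′ end along the hairpin enter this count. With any 3′ end and a start shifted by up to 2 bases, miR-33-5p had 1000, 550 and 506 reads in NAFLD and 1387, 553 and 1548 in normal liver. By the same rule miR-33-3p had 14, 3 and 4 reads in NAFLD and 8, 4 and 5 in normal liver.

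Of miR-33-3p, 2 forms had at least 10 reads.
21 nt, as annotated: caatgtttccacagtgcatca
22 nt, with an added base: caatgtttccacagtgcatcaT

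In them and in the forms below, lower case is the sequence of the hairpin and capitals are 3′ bases that depart from it. The longer form was read 5, 2 and 2 times in NAFLD and 2, 1 and 1 times in normal liver. Its groups did not overlap in TPM, by a margin set by the totals of 2 libraries with 2 reads each. The annotated form was read 2, 1 and 1 times in NAFLD and 1, 2 and 3 times in normal liver.

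The 3′ end of miR-33-5p varied more. The forms with most reads are printed because they show where the arm ends, in the letters of the deposited tags.
21 nt, as annotated: gtgcattgtagttgcattgca
20 nt: gtgcattgtagttgcattgc
22 nt, with an added base: gtgcattgtagttgcattgcaA
22 nt, along the hairpin: gtgcattgtagttgcattgcat
20 nt, with another last base: gtgcattgtagttgcattgT

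The annotated form made up 51.2% of the reads over all libraries, with 484, 267 and 267 reads in NAFLD and 708, 316 and 796 in normal liver. The form shorter by 1 base made up 31.8%, with 368, 178 and 145 reads against 432, 146 and 494. The 22 nt form with an added A made up 6.10% and that along the hairpin 5.04%. The form of 20 nt ending in T made up 1.59%. Together with 7 further tags, the 12 tags of at least 10 reads held 98.4% of the reads, and in none of the 12 did the groups lie apart in TPM. Among the 167 arms tested, the groups did not overlap in 4.19%, and in 1.2% with NAFLD lower. 1 of the 12, gtgcattgtagttgcattgcC, had 5, 4 and 4 reads in the substitution-rich libraries and 0 in the others.

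No measure of the 3′ end set the groups apart beyond the spread between libraries. Reads of the annotated length were 49.2%, 50.9% and 54.3% in NAFLD and 51.5%, 58.4% and 52.4% in normal liver. The means of 51.5% ± 2.62 and 54.1% ± 3.74 (SD, n = 3 each) differed by -2.63 percentage points, no more than libraries of a group did (exact permutation p = 0.4). The exact 95% interval in NAFLD replicate 3, the library with fewest reads, ran from 49.9% to 58.8%. Reads whose 3′ end departs from the hairpin were 10.8% ± 2.47 and 11.4% ± 0.595 (SD, n = 3 each), and those with 1 A added to the annotated form 5.71% ± 1.23 and 6.36% ± 0.168 (SD, n = 3 each). Of the 18 measures of this kind, the exact permutation p was 0.2 at the lowest, and the adjusted p was 0.9 or more for all. Some of the 18 rest on the same reads or are complements of each other, so they are not 18 separate tests. The share of the annotated form was higher for miR-33-5p than for most arms. Over 76 arms with at least 1000 reads the median was 32.3%, and 24 arms had a larger share.

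**Figure D4:**
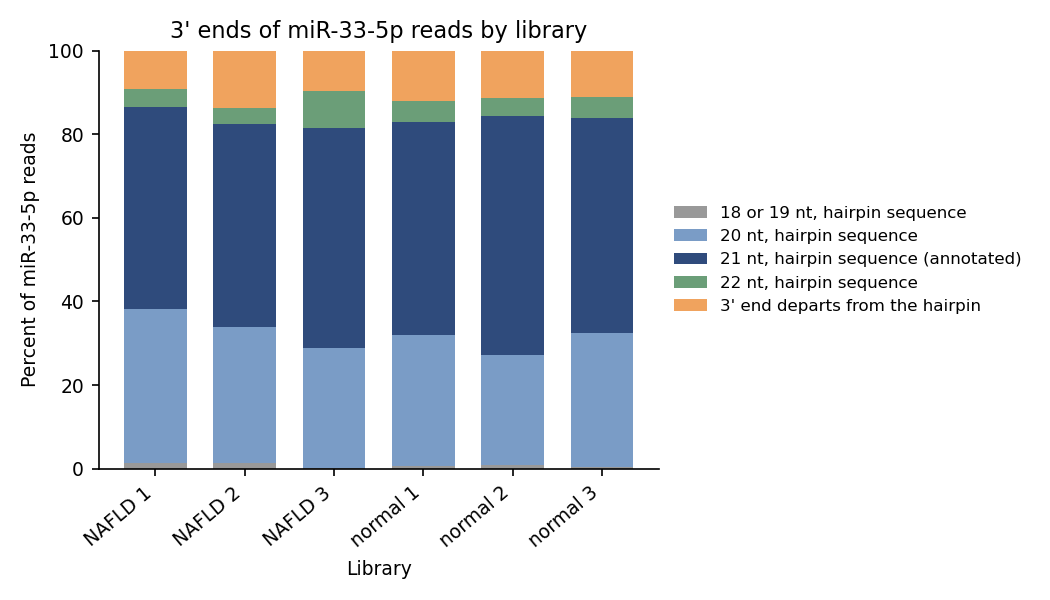
Percent of miR-33-5p reads in each library by the length and 3′ end of the tag. The annotated form of 21 nt and the form shorter by 1 base hold most reads in all 6 libraries, and the 3′ ends that depart from the hairpin hold 9.1% to 13.6%.

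The arms whose level across the libraries was most like that of miR-33-5p were sought by Pearson's r of log2(TPM + 1) over the 6 libraries, among 141 arms with at least 10 reads in every library. They were miR-34c-5p with r = 0.987, miR-340-5p with 0.953, miR-125b-5p with 0.951, miR-30a-5p with 0.9503 and miR-221-3p with 0.944. These values are a description over 6 libraries that share the division by substitutions. In all 5 arms the 3 substitution-rich libraries lay below the 3 others, as in miR-33-5p itself, a split that the choice by r favours. miR-34c-5p, for instance, had 6.52 to 8.26 TPM in the former and 13.1 to 18.9 TPM in the latter. Over the 87 arms above, 79 had a lower mean in the substitution-rich libraries. The median log2 ratio of the sets was -0.57 by exact match and -0.18 with 1 substitution allowed. For miR-33-5p it was -1.29 and -0.67, and 9 and 6 arms had lower values.

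Other miRNAs that are known to act on cholesterol and lipid genes were taken as a list of 20 arms, miR-33-5p included. The arms miR-27a-3p and miR-27b-3p share their first 18 bases and were counted as 1. Of the resulting 19, 15 were tested, 1 was called lower, 0 were called higher and 14 were not called, beside 0.599% called over all 167 arms. The called member is miR-122-5p, the same arm that makes up the count over all arms, and its call is lost under the 4 fits named above. The median log2 fold change of the 15 was -0.17, against 0.02 for all 167 arms, and the estimates ran from -1.29 to 0.91. miR-145-5p, known for its role in smooth muscle and also as a repressor of ABCA1, had the lowest estimate, -1.29 (standard error 0.72, edgeR adjusted p = 0.986). It had 15.9, 6.89 and 21.8 TPM in NAFLD and 84.6, 11.4 and 13.2 TPM in normal liver. This estimate rests on normal replicate 1, and without that library it was 0.28. miR-144-3p, an erythroid miRNA that also targets ABCA1, had the highest estimate, 0.91 (standard error 0.49, edgeR adjusted p = 0.986), with 17.7, 5.95 and 12.6 TPM against 8.94, 3.37 and 6.99 TPM. The estimate of miR-33-5p was the second lowest of the list. In 3 arms of the list, miR-10b-5p, miR-301b-3p and miR-758-3p, no tag met the 18-base rule. For miR-10b-5p, tags that begin 1 or 2 bases earlier were read 2 to 21 times per library.

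A further list held arms of miRNAs that, like miR-33, lie in introns of protein-coding genes. Of its 15 arms or groups of arms, 12 were tested and 0 were called in either direction by edgeR, beside 0.599% of all arms, with a median log2 fold change of 0.06. At an unadjusted p under 0.05 there were also 0, beside 1.8% of all arms, so a count of 0 among 12 does not set the list apart. Among them, miR-33-5p had the lowest estimate. The highest was that of miR-378a-3p, which lies in Ppargc1b, a gene for a coactivator of mitochondrial and lipid metabolism. miR-378a-3p had 1319, 833 and 1331 TPM in NAFLD and 839, 469 and 1069 TPM in normal liver, a log2 fold change of 0.55 (standard error 0.38, edgeR adjusted p = 0.986). It was followed by miR-140-3p with 0.54 (standard error 0.38, edgeR adjusted p = 0.986). With 1 substitution allowed and the 2 sets as a covariate, a fit added after seeing the data, miR-378a-3p was called higher at 0.83 (edgeR adjusted p = 0.0216), as was miR-144-3p at 1.31 (edgeR adjusted p = 0.0468). In that fit 4 of all 173 arms tested were called, 3 of them higher. The median log2 fold change of all arms in it was 0.25, so the arms as a whole lay above 0.

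Since whole liver holds several cell types, miRNAs that mark them were read beside miR-33-5p. Summed over the 4 hepatocyte arms, the level was 474195 to 481459 TPM in NAFLD and 582999 to 621798 TPM in normal liver, which is set by miR-122-5p. The call of miR-122-5p is lost under the 4 fits named above. Of the other 3, miR-192-5p, miR-194-5p and miR-148a-3p, none was called, beside 0.599% of all 167 arms tested. A count of 0 among 3 does not set them apart. Summed erythroid arms (3 of 5 in the table) had 27.0 to 76.3 TPM and 30.8 to 50.4 TPM, and summed leukocyte arms (4 of 5) 7.48 to 15.3 TPM and 3.96 to 13.4 TPM. Summed arms of stellate, smooth muscle and fibroblast cells (5 of 5) had 532 to 665 TPM in NAFLD and 342 to 593 TPM in normal liver. Summed endothelial arms (2 of 2) had 23.5 to 48.4 TPM and 14.7 to 41.1 TPM. These summed ranges overlapped between the groups for all but the hepatocyte arms. Among single markers outside the hepatocyte list, the groups did not overlap for miR-199a-3p, the most abundant of the stellate, smooth muscle and fibroblast list. It had 438.8, 399.7 and 429.6 TPM in NAFLD and 293.7, 210.4 and 384.3 TPM in normal liver (log2 fold change 0.51, standard error 0.38, edgeR adjusted p = 0.986). This arm was named after its values were seen, and over all 167 arms tested the groups did not overlap in 4.19%. For miR-199a-5p, the other arm, the groups overlapped, with 1.72, 1.11 and 0.846 TPM in NAFLD and 1.01, 0.421 and 1.35 TPM in normal liver. No marker arm was at 0 in a library. The part of cell composition in the level of miR-33-5p was not tested.

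The estimate for miR-33-5p stayed below 0 in each of the 16 fits run, between -1.13 and -0.27 on the log2 scale, and the adjusted p was not under 0.05 in any of them. Its size was largest without NAFLD replicate 1, at -1.13, and without normal replicate 2, at -1.08. It was least with 1 substitution allowed and the 2 sets as a covariate, at -0.27. The fits with TMM factors, with DESeq2 size factors, with DESeq2 and without normal replicate 2 gave intervals below 0, at unadjusted p of 0.0148, 0.0213, 0.0184 and 0.0231, and adjusted p of 0.436, 0.592, 0.512 and 0.760.

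**Figure D5:**
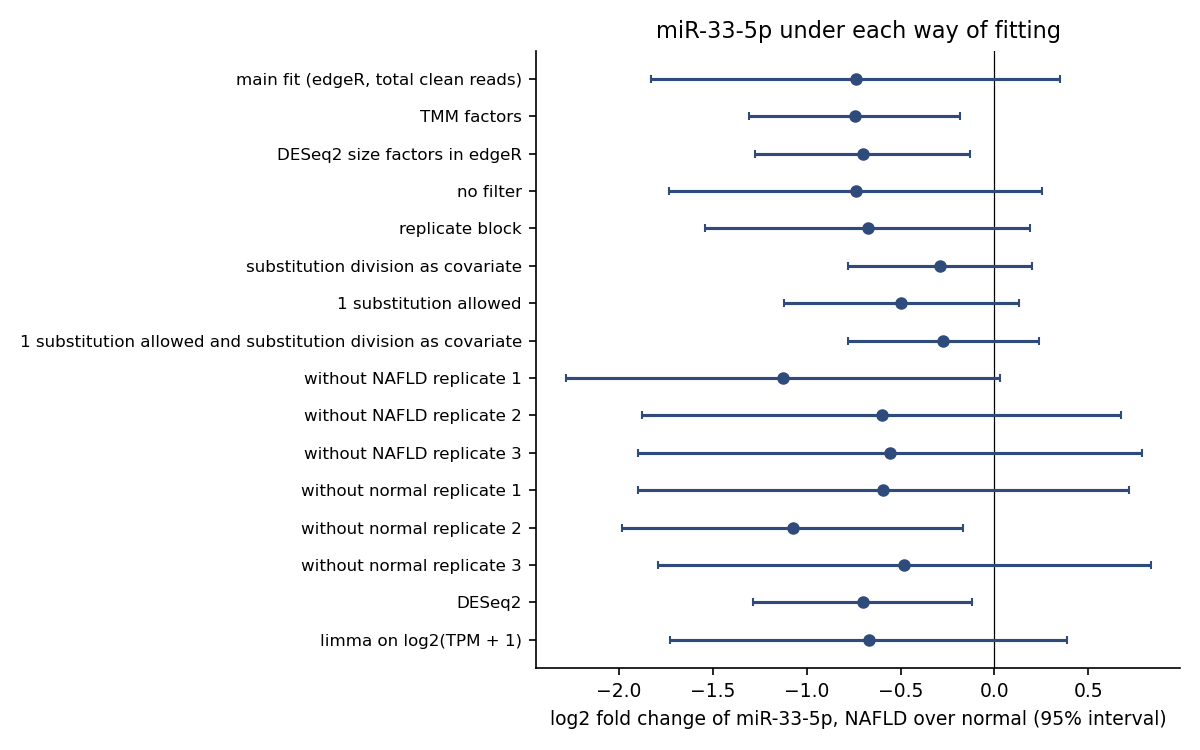
Fold change of miR-33-5p (log2, NAFLD over normal) with its 95% interval under each fit, from edgeR unless another tool is named. All 16 estimates lie below 0, and the intervals of 4 fits do not reach 0.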

How the data were processed

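Small RNA of 18 to 30 nt was cut from gels and sequenced by the authors, who cleaned the reads for quality, primers, empty inserts, poly A and a length under 18 nt. The deposited values are raw counts of reads per tag, and the deposited log gives counts of reads per cleaning step. No genome match was required for these tags, and their counts add up to the clean reads of the log. The processing notes name the build rn5. The sequences used here are from RefSeq on GRCr8, without conversion of coordinates.

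TPM was calculated by the formula of the study, as the count divided by total clean reads and multiplied by 1000000. Tags were counted to an arm by their first 18 bases, and names shorter than that (7 of 693) were left out. Groups and replicate numbers are from the sample labels. Single values were compared by two-sided exact permutation tests, and all arms by edgeR 4.0.16 in R 4.3.3 (glmQLFit, glmQLFTest, filterByExpr, Benjamini-Hochberg adjustment, threshold 0.05). Standard errors were derived from the log2 fold change and its F statistic. As alternatives, DESeq2 1.42.0 was run on the counts and limma 3.58.1 on log2(TPM + 1). The fit was tested on simulated data. The hairpin was folded with RNAfold 2.7.2, and Python 3.11.15 with scipy 1.17.1 did the other steps. Exact binomial intervals at 95% cover counting error only. Replicates of a group differed by far more than sampling noise. The labels do not say more of their origin than separate samples.

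The members and lists were chosen with earlier results of these data known. Named arms were both members, their tags with at least 10 reads, the 5 arms most alike, the 2 neighbours on either side in level, and of each list at most the 3 with the smallest p in each direction. The covariate divides the libraries at the widest gap in position 4 substitutions. mRNA, including that of Srebf2, was not analysed here.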

Additional observations from a re-analysis of the deposited data

How the results depend on the processing

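Every alternative run for miR-33-5p, its share of both arms and its share at the annotated length kept the direction of the difference, although 3 libraries against 3 cannot give a permutation p under 0.1. Leaving out 1 library gave a log2 ratio of miR-33-5p from -1.13 to -0.48. With the reads of all arms as denominator it was -0.54 (exact permutation p = 0.3). With TMM-scaled libraries it was -0.74 (exact permutation p = 0.1, the lowest possible). By that scaling the groups thus did not overlap, unlike in TPM. The TMM factor of normal replicate 2 was 0.675, the lowest of the 6 libraries. Leaving out 1 library gave differences from -0.516 to -0.194 percentage points for the share of both arms and from -4.06 to -0.486 for the share at the annotated length. For miR-33-3p, which rests on 33 reads, the log2 ratio of 0.46 reversed to -0.56 with the whole mature sequence and to -0.18 within the substitution-rich libraries. It ran from -0.41 to 0.80 when 1 library was left out. The number of arms called, 1 by edgeR, was 0 with TMM factors, with DESeq2 size factors in edgeR and with limma, and 12, 11 and 2 arms then had an unadjusted p under 0.05. DESeq2 also called 1, but another arm, miR-1b, which was lower (adjusted p = 0.00203). It was 4 with 1 substitution allowed and the sets as a covariate, an alternative chosen after seeing the data, as were those with 2 and 3 substitutions and within the sets. It was 1 to 2 when 1 library was left out, with 2 without NAFLD replicate 1. With 1 substitution allowed and the sets as a covariate, the estimates of miR-340-5p and miR-125b-5p turned to 0.0049 and 0.028. That of miR-145-5p ran from -1.72 to 0.28 when 1 library was left out, reversed without normal replicate 1. The cause was not tested. Replicate numbers occur in both groups. Same-numbered libraries deviated from their group means with r of 0.149, 0.340 and -0.541 across arms. For differently numbered libraries r ran from -0.522 to 0.452. The 2 sets of libraries cut across these pairs, so whether the numbers pair the libraries cannot be told from r. With the replicate block, miR-33-5p had a log2 fold change of -0.67 (edgeR adjusted p = 0.983) and 1 arm was called. With total clean reads as library size, the spread between libraries limits miR-33-5p, at an edgeR standard error of 0.50. This spread depends on the scaling: the standard error was 0.25 with TMM factors and 0.26 with DESeq2 size factors. In those fits the edgeR adjusted p was 0.436 and 0.592. For miR-33-3p, depth is the limit.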
